A study of Mus musculus with 6 samples.

Results

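The genes described here are 10 that encode EF-hand calcium-binding proteins known mainly from retinal interneurons and other neurons: Calb2, Pvalb, Scgn, Cabp1, Cabp5, Caln1, Hpca, Ncald, Necab1 and Necab2. They were taken by symbol, from a list drawn up with earlier results of these data known, and all 10 were found among the 24346 gene symbols of each library. The study sequenced mRNA from mouse retina in 6 libraries, 3 labelled Cyfip2 conditional knockout (CKO) and 3 labelled Cyfip2 wild type (WT), to ask how the retinal transcriptome differs when Cyfip2 is lost. The labels do not state the strain, the age, the Cre line that drives the deletion, the alleles of the WT animals or whether each library came from its own animal. The p-values therefore measure the spread between these libraries, which may be technical.

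EF-hand proteins bind calcium through a helix, a loop and a second helix. Some of them, such as calretinin (Calb2) and parvalbumin (Pvalb), act mainly as buffers that shape a calcium transient. Others are sensors that change shape when they bind calcium and then act on a channel, an enzyme or a membrane, as the calmodulin-like CaBP proteins and the myristoylated neuronal calcium sensors hippocalcin and neurocalcin delta do. In the retina several of them are standard stains for cell types. Calretinin marks amacrine and ganglion cells, secretagogin (Scgn) marks subsets of cone bipolar cells, and CaBP5 marks rod bipolar cells and some cone bipolar cells.

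The coding sequences of the closest relatives in the group are shown first, because a gene level is only informative if reads of relatives can be told apart. Hpca and Ncald are the most alike. The windows run from base 289 to 378 of coding sequences that are each 579 bases long without the stop codon (GENCODE M21, GRCm38; counted from the A of the start codon), and the bases that differ between the genes are in capitals.
Hpca: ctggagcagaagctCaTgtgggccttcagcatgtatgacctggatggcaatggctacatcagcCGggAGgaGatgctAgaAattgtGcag
Ncald: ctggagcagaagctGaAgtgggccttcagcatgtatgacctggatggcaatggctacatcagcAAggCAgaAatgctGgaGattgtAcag
These 90 bases hold 10 differences, and the longest run shared by the whole coding sequences was 46 bases. Necab1 and Necab2 are less alike. Their most similar stretch covers bases 202 to 291 of 1056 in Necab1 and bases 313 to 402 of 1167 in Necab2, with capitals again for the bases that differ.
Necab1: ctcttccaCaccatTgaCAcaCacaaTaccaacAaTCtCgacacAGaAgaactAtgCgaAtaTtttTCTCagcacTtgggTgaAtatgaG
Necab2: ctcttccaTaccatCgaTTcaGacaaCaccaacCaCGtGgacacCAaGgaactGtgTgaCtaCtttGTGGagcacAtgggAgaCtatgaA
Here 25 of 90 bases differed, and no shared run was longer than 14 bases. No stretch of 50 bases of the longest protein-coding transcript of Calb2, Pvalb, Scgn, Cabp1 or Necab2 occurred in a transcript of another gene. Of the stretches of Cabp5, 1.62% occurred elsewhere, spread over 457 genes, and of those of Hpca 1.0%, spread over 91 genes. The shares were 0.0216% for Caln1, and 11.3% for Ncald and 7.41% for Necab1, where the partners are annotated genes that overlap them.

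Promoter sequence is shown for 3 genes whose CKO and WT libraries did not overlap, 1 higher in CKO (Caln1) and 2 lower (Scgn and Necab2). Of the 10 genes, 7 matched RefSeq's promoter table (GRCm38.p6), and Calb2, Ncald and Necab1 are not in it. Each sequence is the 250 bases before the start site, at chr5:130369208-130369457 on the plus strand for Caln1, chr13:23991215-23991464 on the minus strand for Scgn and chr8:119446469-119446718 on the plus strand for Necab2. Capitals mark matches, on either strand, to CCAAT, to the TATA box TATAAA, to the half-site of cyclic AMP response elements TGACG, to the Sp1 type box GGGCGG, to the E-box CAGCTG or to the AP-2 type site GCCNNNGGC.
Caln1: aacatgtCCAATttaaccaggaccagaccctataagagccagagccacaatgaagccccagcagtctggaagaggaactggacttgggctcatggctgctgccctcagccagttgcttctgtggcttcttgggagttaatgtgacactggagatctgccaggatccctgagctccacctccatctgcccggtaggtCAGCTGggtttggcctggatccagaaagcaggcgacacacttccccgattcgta
Scgn: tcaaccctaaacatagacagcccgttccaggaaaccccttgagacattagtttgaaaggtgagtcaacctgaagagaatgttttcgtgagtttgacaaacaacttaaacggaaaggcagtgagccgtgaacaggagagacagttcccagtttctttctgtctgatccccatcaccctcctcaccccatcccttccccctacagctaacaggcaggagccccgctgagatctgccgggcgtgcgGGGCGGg
Necab2: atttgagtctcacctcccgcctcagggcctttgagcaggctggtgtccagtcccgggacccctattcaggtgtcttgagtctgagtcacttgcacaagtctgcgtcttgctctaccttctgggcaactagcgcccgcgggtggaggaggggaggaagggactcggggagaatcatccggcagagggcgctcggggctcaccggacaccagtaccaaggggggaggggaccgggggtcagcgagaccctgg
The Caln1 window holds a CCAAT match and an E-box match, and the Scgn window an Sp1 type match next to the start site. The Necab2 window holds none of the 6 motifs, although 64.0% of its bases are G or C. Over the 32851 promoter windows of the table, the CCAAT motif was present in 33.8%, the Sp1 type box in 32.7%, the cyclic AMP half-site in 17.8%, the AP-2 type site in 13.7%, the E-box in 13% and the TATA box in 12.4%. The 3 matches do not overlap one another.

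Cyfip2 itself, the check of the labels, was at 8.33, 10.2 and 11.2 FPKM in CKO 1 to 3 and at 35.5, 63.1 and 62.3 FPKM in WT 1 to 3 (FPKM, a read level corrected for transcript length and library size). WT 1 was thus the lowest WT library for the deleted gene. Libraries correlated at Pearson's r of 0.9681 to 0.9794 over the 13215 genes tested, those whose mean reached 1 FPKM. Markers of retinal neurons were abundant, with summed rod markers at 15043 to 16998 FPKM. WT 2 stood apart in markers of lens and cornea, which summed to 228.3 FPKM there and to 22.2 to 82.2 FPKM in the other libraries. WT 2 was also the highest WT library for 7 of the 10 calcium-binding genes. WT 1 was the lowest WT library for 7 of the 10.

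The 10 genes covered a 64.7-fold range of levels in WT retina. Calb2 was the most abundant, at 326.7 ± 13.6 FPKM (SD, n = 3), and only 1.23% of tested genes had a higher mean over all libraries. Hpca followed at 80.8 ± 5.84 FPKM, a level 4.04 times below Calb2. Cabp5 (69.3 ± 1.75 FPKM) and Cabp1 (66.6 ± 4.10 FPKM) were next, and their WT ranges overlapped, so their order is not resolved. Below them came Scgn (56.0 ± 3.30 FPKM), Ncald (45.1 ± 2.12 FPKM), Necab2 (29.0 ± 0.479 FPKM), Necab1 (17.1 ± 0.852 FPKM), Caln1 (8.80 ± 0.383 FPKM) and Pvalb (5.05 ± 0.442 FPKM). Apart from Cabp5 and Cabp1, every neighbouring pair in this order had WT ranges that did not overlap. In CKO retina the order was the same except that Cabp1 and Cabp5 had nearly equal means (66.31 and 66.30 FPKM). All 10 genes passed the filter on low values.

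**Figure D1:**
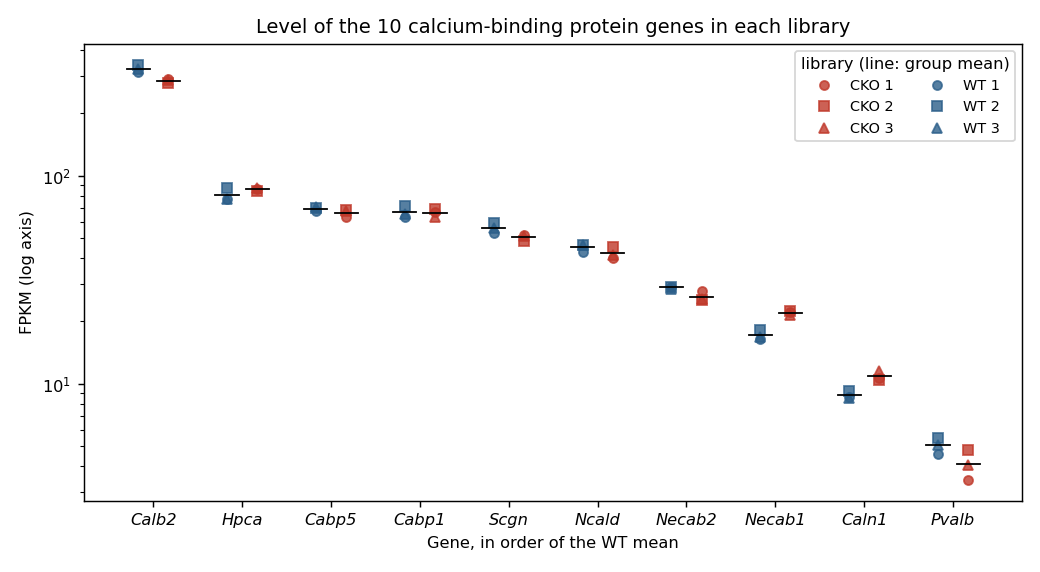
Level of each of the 10 genes in every library (FPKM, log axis), ordered by the WT mean; circles, squares and triangles are replicates 1, 2 and 3, blue is WT, red is CKO and the black line is the group mean. Calb2 lies at 279.3 to 341.5 FPKM, above all other genes, and Pvalb at 3.43 to 5.47 FPKM, below all others.

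Between genotypes, no gene of the 10 passed the test. Over all 13215 genes, 0.0227% were called at a limma adjusted p under 0.05 (3 genes). At an unadjusted p under 0.05, 5 of the 10 genes stood out, Necab1 and Caln1 with higher and Calb2, Scgn and Necab2 with lower levels in CKO, beside 7.88% of all genes tested (3.52% higher and 4.36% lower). For the same 5 genes the CKO and WT libraries did not overlap, which held for 13.9% of all genes tested (6.96% higher and 6.95% lower). Which genes were under the unadjusted threshold depended on single libraries. Without WT 2 they were Calb2, Hpca, Necab1 and Caln1, and without CKO 2 they were Calb2, Pvalb, Necab1 and Caln1, so that 3 of the 5 remained in each case. Necab2 was also lost without CKO 3 and without WT 1, and Scgn without WT 3. All 5 remained only without CKO 1. The median difference of the 10 genes was -0.08 on the log2(FPKM + 1) scale, with 3 above and 7 below 0, beside a median of -0.0016 over all genes. The median size of the difference, regardless of sign, was 0.14 against 0.07 over all genes. In simulated data with normal noise and 200 changed genes, the test recovered 11.4% of genes changed by 0.25 and 65.6% of those changed by 0.5. So many changed genes, some of them changed by 1 or 2, ease the adjusted threshold, so recovery in these data may be lower. Differences as small as those of the 10 genes would mostly go uncalled.

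Calb2, on chromosome 8 from 110137502 to 110168210 (minus strand, GRCm38), encodes calretinin, a fast calcium buffer. It was at 292.1, 279.3 and 287.8 FPKM in CKO 1 to 3 and at 314.6, 341.5 and 324.2 FPKM in WT 1 to 3. Every CKO library was below every WT library, with a gap of 22.5 FPKM between the nearest ones. The CKO mean of 286.4 ± 6.53 FPKM was 12.4% below the WT mean (SD, n = 3 each). The log2 difference was -0.19 with a standard error (SE) of 0.05 and a 95% confidence interval from -0.30 to -0.08 (limma adjusted p = 0.3879). It lay between -0.22 and -0.16 in all 18 alternative fits, with -0.16 without WT 2.

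Pvalb, on chromosome 15 from 78191114 to 78206400 (minus strand), encodes parvalbumin, a slow buffer found in some ganglion cells of the mouse retina. Its level was 3.43, 4.78 and 4.05 FPKM in CKO and 4.59, 5.47 and 5.07 FPKM in WT. CKO 2 lay above WT 1, so the groups overlapped, and the replicates differed more than those of any other of the 10 genes (coefficient of variation 16.5% in CKO). The log2 difference of -0.26 (SE 0.12) had an interval of -0.53 to 0.02 (limma adjusted p = 0.6597). Leaving out CKO 2 moved it to -0.35, and leaving out CKO 1 to -0.16.

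Scgn, on chromosome 13 from 23953456 to 23991214 (minus strand), encodes secretagogin, a sensor with EF-hands of the calbindin kind. Levels were 51.7, 48.3 and 51.3 FPKM in CKO and 52.8, 59.4 and 55.8 FPKM in WT. The groups were separate by only 1.14 FPKM, between CKO 1 and WT 1. The CKO mean was 9.98% below the WT mean (log2 difference -0.15, SE 0.06, interval -0.28 to -0.02, limma adjusted p = 0.5915). Without WT 2 the difference was -0.11. Its unadjusted p was above 0.05 when any of WT 2, WT 3 or CKO 2 was left out. In the profile over the 6 libraries Scgn and Calb2 were each other's nearest among 43 other calcium-binding genes compared (root mean square difference 0.0278 on the centred log2 scale). Each profile was centred on the mean of all 6 libraries, so it includes the difference between CKO and WT given above. Some gene is always the nearest, so the match is a description only.

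Of the calmodulin-like genes Cabp1, Cabp5 and Caln1, only Caln1 had groups that did not overlap, and it was higher in CKO. Cabp1 and Cabp5 had small differences below 0, with intervals that included 0. Cabp1, on chromosome 5 from 115168689 to 115194381 (minus strand), encodes CaBP1 and its longer form caldendrin, which regulate voltage-gated calcium channels. Its libraries were at 66.7, 68.9 and 63.3 FPKM in CKO and at 63.2, 71.1 and 65.5 FPKM in WT. The groups lay within each other (log2 difference -0.0048, interval -0.14 to 0.13, limma adjusted p = 0.9888), and the sign turned in 3 alternative fits. A difference beyond about 0.14 in either direction lies outside that interval.

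Cabp5, on chromosome 7 from 13398132 to 13408887 (plus strand), encodes the bipolar cell protein CaBP5, which also acts on calcium channels. CKO libraries were at 63.1, 68.6 and 67.2 FPKM and WT libraries at 67.5, 69.6 and 70.9 FPKM. CKO 2 was above WT 1, and the log2 difference of -0.06 (SE 0.05, interval -0.18 to 0.05, limma adjusted p = 0.7808) was within the spread. Without CKO 1 it was -0.03.

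Caln1, on chromosome 5 from 130369455 to 130847412 (plus strand), encodes calneuron 1, also called CaBP8, a membrane-anchored sensor of the Golgi. It spans 477958 bp and was the longest gene of the 10. Its level was 10.7, 10.4 and 11.5 FPKM in CKO and 8.64, 9.23 and 8.52 FPKM in WT. All CKO libraries were above all WT libraries, and the CKO mean was 1.24 times the WT mean. The log2 difference was 0.28 (SE 0.07, interval 0.11 to 0.44, limma adjusted p = 0.3954), and it stayed between 0.24 and 0.31 in the alternative fits.

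The neuronal calcium sensors Hpca and Ncald, whose coding sequences are compared above, had differences of opposite sign, and in both the groups overlapped. Hpca, on chromosome 4 from 129111570 to 129122036 (minus strand), encodes hippocalcin. It was at 86.4, 84.4 and 87.3 FPKM in CKO and at 77.5, 87.6 and 77.4 FPKM in WT, where WT 2 lay above every CKO library. The log2 difference was 0.09 (SE 0.06, interval -0.04 to 0.22, limma adjusted p = 0.7575), and 0.15 without WT 2, where its unadjusted p was under 0.05. Tmem54, which overlaps Hpca on the other strand, was listed at 0 in all 6 libraries.

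Ncald, on chromosome 15 from 37366175 to 37792570 (minus strand), encodes neurocalcin delta. Its libraries were at 40.2, 45.3 and 41.5 FPKM in CKO and at 42.7, 46.2 and 46.5 FPKM in WT. CKO 2 was within the WT range (log2 difference -0.09, SE 0.06, interval -0.23 to 0.05, limma adjusted p = 0.7694). The difference was -0.14 without CKO 2 and -0.05 without CKO 1. The ratio of Hpca to Ncald within a library was 2.04 ± 0.153 in CKO and 1.79 ± 0.117 in WT (SD, n = 3 each), with overlapping values.

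The NECAB genes encode neuronal proteins with EF-hands at the N-terminal end and a monooxygenase-like domain, and Necab2 protein is known to bind adenosine and glutamate receptors. Necab1, on chromosome 4 from 14952245 to 15149794 (minus strand), had the smallest p of the 10 genes. It was at 22.0, 22.3 and 21.3 FPKM in CKO and at 16.4, 18.1 and 16.8 FPKM in WT. Each CKO library was above each WT library by at least 3.23 FPKM, and the CKO mean was 1.28 times the WT mean. The log2 difference was 0.34 (SE 0.06, interval 0.21 to 0.47, limma adjusted p = 0.196), which ranked 25 of 13215 by p. It lay between 0.31 and 0.38 in all 18 alternative fits, and the adjusted p between 0.1386 and 0.751. Gm11837, an antisense gene that shares exon sequence with Necab1, was at 1.57 ± 0.435 FPKM in CKO libraries and 1.22 ± 0.262 FPKM in WT, with overlapping groups. Without a stated use of strand, reads from the shared sequence cannot be told apart.

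Necab2, on chromosome 8 from 119446719 to 119472640 (plus strand), lay in the opposite direction from Necab1. Its level was 27.7, 25.3 and 25.6 FPKM in CKO and 29.3, 29.3 and 28.4 FPKM in WT. The groups were separate by 0.688 FPKM, and the CKO mean was 9.62% below the WT mean (log2 difference -0.14, SE 0.05, interval -0.27 to -0.02, limma adjusted p = 0.5915). Necab2 has the most GC-rich transcript of the 10 (63.6%) and Necab1 the least (39.5%). With trends over transcript length and GC removed, the Necab2 difference was -0.08 and that of Necab1 was 0.35. Without WT 2 the Necab2 difference was -0.14. The unadjusted p of Necab2 was above 0.05 when any of WT 1, WT 2, CKO 2 or CKO 3 was left out.

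**Figure D2:**
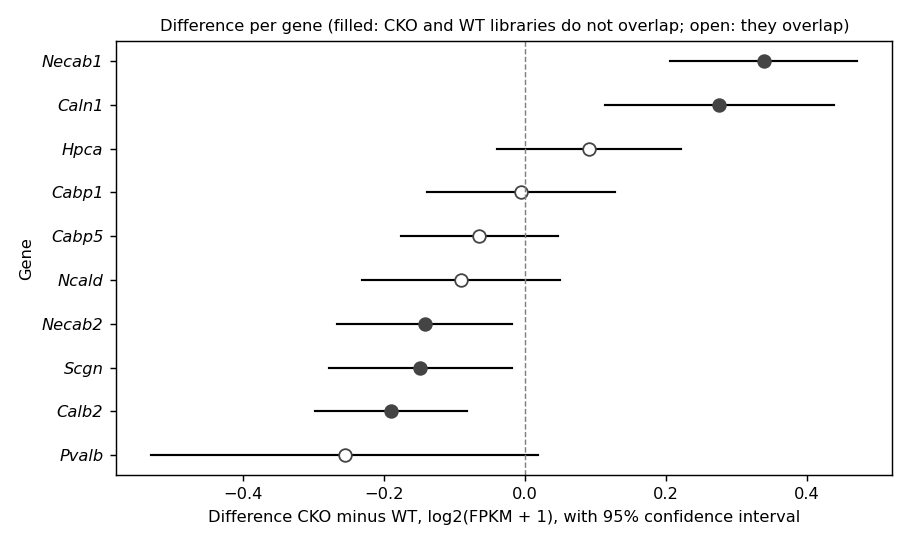
Difference between CKO and WT for each of the 10 genes on the log2(FPKM + 1) scale, with its 95% confidence interval from limma; filled points are genes whose CKO and WT libraries do not overlap. Necab1 (0.34) and Caln1 (0.28) lie to the right of 0 with their whole interval, and Necab2, Scgn and Calb2 to the left.

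Ratios within a library do not depend on how libraries were scaled to each other. All such ratios, here and in the other paragraphs, were formed after the values were seen, as descriptions. This holds also for Hpca to Ncald, Scgn to Cabp5 and Calb2 to Calb1, and for the Calb2 percentage. The ratio of Necab1 to Necab2 was 0.795, 0.885 and 0.832 in CKO 1 to 3 and 0.562, 0.618 and 0.592 in WT 1 to 3. CKO and WT were apart, with means of 0.837 ± 0.0453 and 0.590 ± 0.0280 (SD, n = 3 each). This separation adds nothing to the values above, because the groups of each gene were already apart, in opposite directions. The ratio of Caln1 to Cabp5 was 0.164 ± 0.0104 in CKO and 0.127 ± 0.00635 in WT, again with no overlap. Calb2 made up 46.3% to 46.5% of the summed level of the 10 genes in WT libraries and 42.5% to 44.0% in CKO libraries. The other 9 genes together were at 374.5 ± 3.36 FPKM in CKO libraries and 377.8 ± 16.9 FPKM in WT, so the lower total in CKO (660.9 against 704.6 FPKM) lay mostly in Calb2. The sum of the other 9 is a net value: higher CKO means of Hpca, Necab1 and Caln1 offset lower means of the rest.

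**Figure D3:**
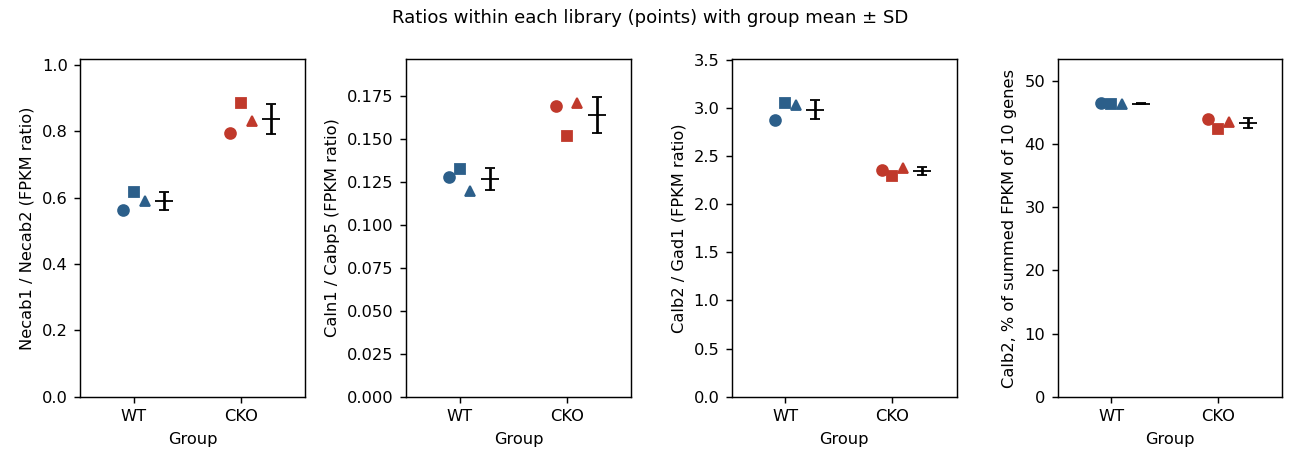
Ratio of Necab1 to Necab2, of Caln1 to Cabp5 and of Calb2 to Gad1, and Calb2 as a percentage of the summed FPKM of the 10 genes, in each library (circles, squares and triangles are replicates 1, 2 and 3), with the group mean ± SD in black. CKO libraries lie above WT libraries in the left pair of panels and below them in the right pair. Necab1 and Necab2, and Calb2 and Gad1, were each apart between the groups in opposite directions, so their ratios had to separate.

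Whole retina mixes all cell types, so fewer cells of a type and less RNA per cell cannot be told apart. Calretinin is made by amacrine and ganglion cells, whose other markers lay mostly on opposite sides of 0. Of 15 amacrine markers 14 were tested, with 11 above and 3 below 0, a median difference of 0.19 and 11 at an unadjusted p under 0.05 (9 higher, 2 lower), and their summed level was 724.2 to 754.5 FPKM in CKO and 642.8 to 671.4 FPKM in WT. Of 16 ganglion cell markers 4 were above and 12 below 0 (median -0.16, 7 lower at an unadjusted p under 0.05), with sums of 804.3 to 825.5 FPKM in CKO and 881.6 to 948.9 FPKM in WT. For these counts and those of the marker lists below, the shares over all genes tested were 3.52% higher and 4.36% lower. Calb2 set against Gad1, the GABA-synthesizing enzyme of amacrine cells, had a ratio of 2.36, 2.297 and 2.37 in CKO and 2.87, 3.05 and 3.03 in WT. Gad1 was higher in every CKO library than in any WT library and Calb2 lower, so this ratio had to separate. Gad1 was chosen after its values were seen and does not stand for the whole list: the 3 amacrine markers below 0, on the same side as Calb2, were Slc18a3 (-0.42) and Chat (-0.05) of cholinergic amacrine cells and the transcription factor Prdm13 (-0.27). The part of either cell class in the Calb2 difference was not tested.

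For Scgn and Cabp5 the matching markers are those of bipolar cells. Of 12 cone bipolar markers 2 were above and 10 below 0 (median -0.10, 2 lower at an unadjusted p under 0.05), with sums of 281.0 to 296.9 FPKM in CKO and 295.8 to 321.5 FPKM in WT, which overlap. Of 11 markers of rod and ON bipolar cells 7 were above and 4 below 0 (median 0.0050, 3 lower at an unadjusted p under 0.05), with sums of 864.4 to 908.8 FPKM in CKO and 948.2 to 983.5 FPKM in WT. The ratio of Scgn to Cabp5 was 0.762 ± 0.0574 in CKO and 0.808 ± 0.0397 in WT, with overlapping libraries. Of 10 horizontal cell markers 1 was above and 9 below 0 (median -0.10, 3 lower at an unadjusted p under 0.05), with sums of 287.8 to 305.5 FPKM in CKO and 310.5 to 318.3 FPKM in WT. None of the markers in these 5 lists was at 0 in all libraries, none was called by limma, and their part in the differences of the 10 genes was not tested. The lists hold none of the 10 genes. Besides the ganglion cell, cone bipolar and horizontal cell lists, the photoreceptor lists also leaned below 0. Of 9 cone photoreceptor markers 1 was above and 8 below 0 (median -0.17, 4 lower at an unadjusted p under 0.05). Of 10 rod markers 2 were above and 8 below 0 (median -0.06, 1 lower). Muller glia markers had 7 above and 2 below 0, but a median of only 0.03 (2 higher at an unadjusted p under 0.05). Dkk3 (0.93) was the 1 called higher by limma. Rlbp1, Slc1a3, Aqp4, Apoe and Kcnj10 lay between -0.02 and 0.03.

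**Figure D4:**
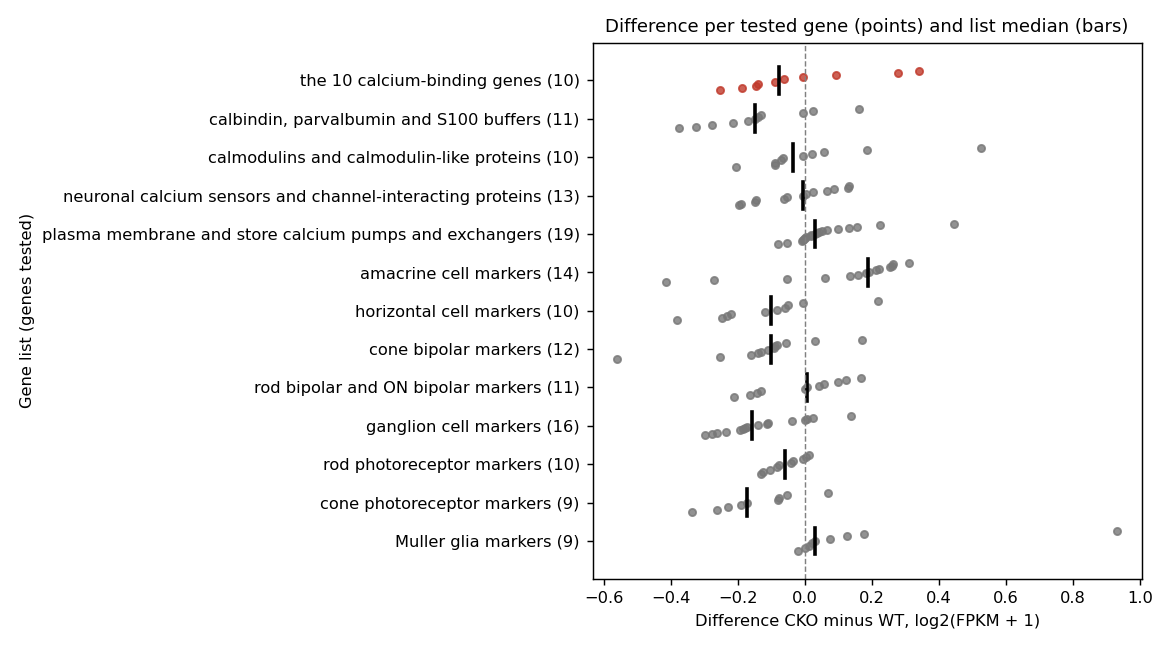
Difference between CKO and WT (log2(FPKM + 1)) of every tested gene in each list, with the number tested in brackets; the black bar is the list median and the dashed line the median of all genes. The 10 calcium-binding genes (red) spread from -0.26 to 0.34, with a median of -0.08, and the amacrine markers have a median of 0.19.

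Other genes of calcium binding were read from 3 lists of 40 genes, of which 34 were tested. Of these, 12 were above and 22 below 0, with a median difference of -0.07. None was called by limma, and 6 were at an unadjusted p under 0.05 (1 higher, 5 lower), beside 7.88% of all genes tested (3.52% higher, 4.36% lower). The list of calbindin, S100 and swiprosin genes was mostly lower, with 2 above and 9 below 0 among 11 tested and a median of -0.15. Calb1, which encodes calbindin, the relative of calretinin found in horizontal cells, was at 26.2, 27.0 and 26.6 FPKM in CKO and 31.1, 37.1 and 33.0 FPKM in WT. Its groups did not overlap (log2 difference -0.33, SE 0.07, limma adjusted p = 0.3044). S100a16 was at 20.9 ± 1.93 FPKM in CKO libraries and 25.5 ± 1.28 FPKM in WT (limma adjusted p = 0.4273). Because Calb1 was lower by a larger ratio than Calb2, the ratio of Calb2 to Calb1 was 10.8 ± 0.405 in CKO and 9.71 ± 0.471 in WT, with no overlap.

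Calmodulins and calmodulin-like genes had 4 above and 6 below 0 among 10 tested, with a median of -0.04. Ppp3r1, the calcium-binding subunit of calcineurin, was at 85.3 ± 2.66 FPKM in CKO libraries and 90.8 ± 2.57 FPKM in WT (limma adjusted p = 0.6943). Calml4 was low, at 2.42 ± 0.25 and 1.42 ± 0.566 FPKM (limma adjusted p = 0.5723), and WT 3 at 0.769 FPKM was well below the other WT libraries. Neuronal calcium sensors and channel-interacting proteins, the family of Hpca and Ncald, had 6 above and 7 below 0 among 13 tested (median -0.0050). Kcnip4, a subunit of A-type potassium channels, was at 19.5 ± 0.805 FPKM in CKO libraries and 22.5 ± 1.05 FPKM in WT (limma adjusted p = 0.5036). Ncs1 was at 20.4 ± 0.441 and 18.6 ± 0.990 FPKM (limma adjusted p = 0.6412), and its profile was the nearest to that of Hpca (root mean square difference 0.0395). For the other genes the nearest profiles were Caln1 for Necab1 (0.0681), Calb2 for Necab2 (0.0503), Efhd2 for Caln1 (0.0630), Chp1 for both Cabp5 (0.0300) and Ncald (0.0302), Vsnl1 for Cabp1 (0.0434) and S100b for Pvalb (0.0784). These profiles too include the difference between CKO and WT.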

How the data were processed

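The authors deposited 1 file per library with 1 FPKM value per gene symbol. Cufflinks 2.2.1, which gives this unit, is named with TopHat2 2.0.13, SAMtools 1.11, Bowtie2 2.3.5.1 and build mm10 in the submitters' processing notes, without roles. Per the labels' protocols, TRIzol RNA went into a stranded TruSeq mRNA preparation. How strand was used and which annotation was counted is not stated. In WT 3, 27 symbols stored as dates were restored from the same rows of the other libraries.

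FPKM keeps no counts, so absolute depth is unknown and precision was taken from the spread between libraries. Ratios of values below 0.3 FPKM fell within 0.02 (log2) of ratios of whole numbers up to 6 in 80.4% to 84.2% of cases, which put the depth at 1.04 to 1.31 times that of WT 1.

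Values were transformed to log2(FPKM + 1), which understates changes of low genes. The 13215 genes whose mean reached 1 FPKM were fitted with limma 3.58.1 in R 4.3.3 (variance trend, two-sided, no covariate, Benjamini-Hochberg adjustment over all of them at 0.05). A single-gene permutation test of 3 against 3 libraries cannot go below 0.1 and was not used. The fit was tested on simulated data (10 runs of 13215 genes, 200 changed). Named genes are the 10 genes, the 2 of smallest p from each calcium list and, for each of the 10, the most similar calcium-binding gene. Genes, lists and tests were chosen with earlier results of these data known. Gm11837, Tmem54 and Gad1 were added after values were seen. Alternatives were pseudocounts, filters, scaling, variance models, the replicate number as a block, each library left out, and, added after seeing the data, removal of trends over length and GC. Positions and transcripts are from GENCODE M21 (GRCm38, the same assembly as mm10). Proteins were not compared here.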

Additional observations from a re-analysis of the deposited data

How the results depend on the processing

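None of the 10 genes was called in any of the 18 alternative fits, where the smallest limma adjusted p of any of them lay between 0.1386 and 0.751, in each case that of Necab1. Of 179 values of the 10 genes under alternatives, 176 kept their sign. The exceptions were all Cabp1, at 0.0172 with quantile normalization and between -0.0414 and 0.043 when a library was left out. Vsnl1 lay between -0.0144 and 0.0574 when a library was left out. The minimum mean of 5 FPKM removed Pvalb. The number of the 10 genes at an unadjusted p under 0.05 was 5. It was 6 with the replicate block, which added Pvalb, 4 with eBayes without the trend, which lost Scgn, and 3 (Calb2, Necab1 and Caln1) with trends over length and GC removed; the cause was not tested. When a library was left out it was 4 to 5, and 3 of the 5 remained without CKO 2 (Pvalb entered) or WT 2 (Hpca entered). Necab2 was also lost without CKO 3 or WT 1, and Scgn without WT 3. Calb2, Necab1 and Caln1 were under it in all 18. Over all genes, 2 were called higher and 1 lower. The gene called lower was Cyfip2 itself (log2 difference -2.29, limma adjusted p = 0.02389). Cyfip2 was called in only 10 of the 18 alternative fits. The number higher was 1 with the replicate block and with eBayes without the trend, and 1 to 3 when a library was left out. The number lower was 0 without the filter, with robust eBayes and with eBayes without the trend, and 0 to 1 when a library was left out. With the replicate block the adjusted p of Necab1 was 0.3008. Replicate numbers are shared between the groups, but nothing says that they pair the samples: deviations of same-numbered libraries correlated at 0.0718, 0.00634 and 0.101. CKO 1 and CKO 3 were closest to the WT library of their own number, while CKO 2 was closest to WT 1 and WT 2 to CKO 3.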

Other observations

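Calcium pumps, exchangers and release channels, which move calcium rather than bind it in the cytosol, were not part of the comparison above. Of 22 listed genes 19 were tested, with 13 above and 6 below 0 and a median log2 difference of 0.03 between CKO and WT. None was called, and 2 had an unadjusted limma p under 0.05, beside 7.88% of all genes tested. Ryr3, a ryanodine receptor, was at 5.42, 5.09 and 5.60 FPKM in CKO 1 to 3 and at 3.61, 3.94 and 3.51 FPKM in WT 1 to 3. Its groups did not overlap, and the CKO mean was 1.46 times the WT mean (log2 difference 0.44, SE 0.09, limma adjusted p = 0.2686, range over alternatives 0.205 to 0.751). Itpr1, an inositol trisphosphate receptor, was at 6.47, 6.78 and 6.65 FPKM in CKO and at 5.53, 6.09 and 5.02 FPKM in WT (log2 difference 0.22, SE 0.09, limma adjusted p = 0.5955). The summed level of the list was 673.5 to 688.0 FPKM in CKO and 639.1 to 695.3 FPKM in WT, with overlap.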
